A study of Mus musculus with 6 samples.

Results

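Nccrp1, Slc10a6 and Paqr7 are 3 genes of the 45513 in the count table of mouse skin keratinocytes with or without Lama3, and of the 15513 that were tested. They were chosen by their measured difference between knockout and control, which was large and tight against the spread between mice. That difference is therefore given below as a description, with no test. Nccrp1 and Slc10a6 were higher in the knockouts and Paqr7 was lower.

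The 3 genes encode unrelated proteins. Nccrp1, also called Fbxo50, encodes a protein with the F-box-associated (FBA) domain by which the sugar-binding F-box proteins of ubiquitin ligases hold their glycoprotein targets. It lacks the F-box itself and is found mainly in stratified epithelia. Slc10a6 encodes SOAT, a sodium-driven uptake transporter for sulfated steroids, which cells can turn back into active hormones with steroid sulfatase. Paqr7 encodes membrane progestin receptor alpha, a membrane protein with many transmembrane helices that binds progesterone and acts quickly through G proteins, apart from the nuclear progesterone receptor. Skin takes up, converts and responds to steroids.

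The knockout mice carried Lama3 flox/flox with K14-CreERT, on a C57BL/6 background. Exons 50 to 53 of Lama3, the gene of the laminin 332 alpha chain, are flanked by loxP sites, and Cre fused to a mutated estrogen receptor domain is driven by the keratin 14 promoter of basal keratinocytes. The controls carried Lama3 wt/flox with the same Cre in the design text, while their genotype label reads wild type. Cre was switched on by chow with 400 mg of tamoxifen citrate per 1 kg. The design text does not state separately that the controls ate this chow, and tamoxifen is itself a ligand of estrogen receptors. Ages and sexes are not in the labels. RNA came from isolated keratinocytes of 3 mice in each group, named control 1 to 3 and knockout 1 to 3 below.

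The libraries held 20126395 to 28473479 counts. Levels are given as CPM, counts per 1000000 counts of a library scaled by its TMM factor. Lama3 itself averaged 132 ± 15.5 CPM in control mice and 91.8 ± 10.9 CPM in knockouts (SD, n = 3 each), with a log2 fold change of -0.53 (SE 0.14, edgeR's adjusted p = 0.0215). Leaving out control 1, control 2 or knockout 1 ended this call (edgeR's adjusted p = 0.0620, 0.0584 and 0.0551). Its counts include exons outside the deletion. Basal keratinocyte markers summed to between 17100 and 23600 CPM in control mice and between 16200 and 22100 CPM in the knockouts. Xist and Ddx3y counts marked control 1, knockout 1 and knockout 2 as female and the other 3 mice as male, so the sexes were unbalanced between the groups.

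Nccrp1 (ENSMUSG00000047586) lies on the minus strand of GRCm38 at chr7:28543596-28547254 and has 1 annotated transcript of 6 exons and 1531 bases. Its level was 26.7, 25.5 and 22.4 CPM in controls 1 to 3 and 219.7, 218.4 and 259.5 CPM in knockouts 1 to 3. The lowest knockout thus lay 8.19-fold above the highest control. Groups did not overlap, with the knockouts higher, in 25.2% of all tested genes, and since the choice of genes used this contrast nothing is read from that share. The means were 24.9 ± 2.23 CPM in control mice and 232.5 ± 23.4 CPM in the knockouts (SD, n = 3 each), a log2 fold change of 3.23 (SE 0.13). Behind these levels stood 536 to 619 counts in the controls and 5195 to 7149 in the knockouts. In both groups the highest mouse exceeded the lowest by 1.19-fold. Its gene model lies within an annotated Samd4b transcript on the same strand but shares 0 exon bases with it, and Samd4b was not analysed here.

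Slc10a6 (ENSMUSG00000029321) lies on the minus strand of GRCm38 at chr5:103605711-103629403, with 1 transcript of 6 exons and 2124 bases. Its level was 2.67, 2.53 and 3.89 CPM in controls 1 to 3 and 40.5, 40.8 and 52.2 CPM in knockouts 1 to 3. The lowest knockout lay 10.4-fold above the highest control. The means were 3.03 ± 0.750 CPM in control mice and 44.5 ± 6.65 CPM in the knockouts (SD, n = 3 each), a log2 fold change of 3.87 (SE 0.21). The control levels rest on few counts. Control 1 had 62 counts (exact Poisson 95% interval 47.5 to 79.5), control 2 had 53 (39.7 to 69.3) and control 3 had 99 (80.5 to 120.5). On the CPM scale the intervals of the 3 controls overlap. These intervals cover counting error only. Knockouts had 958 to 1437 counts. The pseudogene Gm15844, which lies within the gene on the opposite strand, had 0 counts over all libraries.

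Paqr7 (ENSMUSG00000037348) lies on the plus strand of GRCm38 at chr4:134496697-134510235 and has 6 annotated transcripts, the longest of which has 3 exons and 3550 bases. Its level was 164.6, 204.9 and 129.5 CPM in controls 1 to 3 and 14.5, 17.4 and 14.3 CPM in knockouts 1 to 3. Here every knockout lay below every control, and the lowest control exceeded the highest knockout by 7.45-fold. Groups did not overlap in this direction in 26.5% of all tested genes. The means were 166 ± 37.7 CPM in control mice and 15.4 ± 1.70 CPM in the knockouts (SD, n = 3 each), a log2 fold change of -3.43 (SE 0.19). Counts ran from 3295 to 4300 in the controls and from 344 to 498 in the knockouts. The controls spread more than the knockouts, with a highest over lowest ratio of 1.58 against 1.21. In bulk RNA a lower level can come from fewer cells that express a gene or from less RNA per cell, and the counts do not tell these apart.

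**Figure D1:**
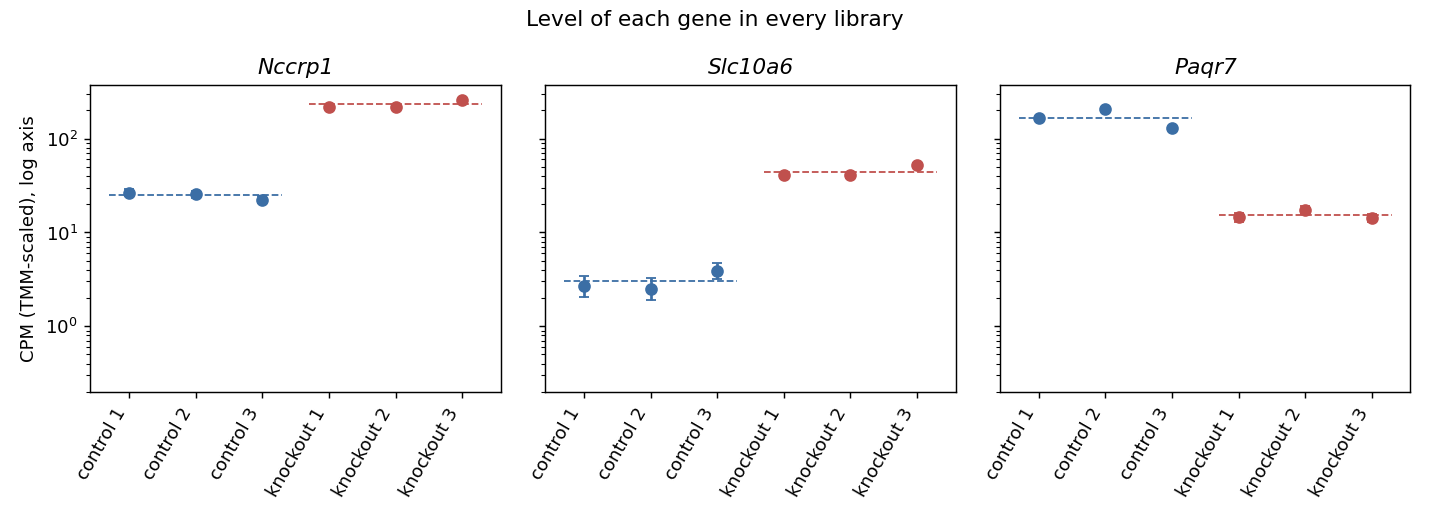
TMM-scaled CPM on a log axis of Nccrp1, Slc10a6 and Paqr7 in each of the 3 control (blue) and 3 knockout (red) libraries, with exact Poisson 95% intervals of the count as bars and the group mean as a dashed line. No control level overlaps a knockout level for any of the 3 genes, and the interval is visibly wide only for the controls of Slc10a6.

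The sequence around the start of transcription is shown, from RefSeq on GRCm38.p6, for Slc10a6 and Paqr7. The promoter sequences used held no window of Nccrp1, so none is shown for it. Each window runs from 250 bases before the annotated start to 50 bases from it. The Slc10a6 window is chr5:103629354-103629653 on the minus strand. The first Paqr7 window is chr4:134496511-134496810 and the second, for a start further downstream, is chr4:134496791-134497090, both on the plus strand. Capitals mark matches to the motifs named in the next paragraph, on either strand.
Slc10a6: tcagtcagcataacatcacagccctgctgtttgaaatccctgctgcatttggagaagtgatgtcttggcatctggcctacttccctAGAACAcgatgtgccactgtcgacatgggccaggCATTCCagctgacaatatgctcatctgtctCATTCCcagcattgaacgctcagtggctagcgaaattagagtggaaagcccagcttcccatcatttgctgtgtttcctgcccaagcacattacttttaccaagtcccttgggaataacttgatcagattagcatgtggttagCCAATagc
Paqr7 first start: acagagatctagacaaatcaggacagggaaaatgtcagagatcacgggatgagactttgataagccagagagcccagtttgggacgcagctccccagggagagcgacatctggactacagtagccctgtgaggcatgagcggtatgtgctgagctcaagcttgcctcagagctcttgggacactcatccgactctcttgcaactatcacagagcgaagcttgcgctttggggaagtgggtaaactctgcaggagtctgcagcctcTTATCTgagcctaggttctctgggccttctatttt
Paqr7 second start: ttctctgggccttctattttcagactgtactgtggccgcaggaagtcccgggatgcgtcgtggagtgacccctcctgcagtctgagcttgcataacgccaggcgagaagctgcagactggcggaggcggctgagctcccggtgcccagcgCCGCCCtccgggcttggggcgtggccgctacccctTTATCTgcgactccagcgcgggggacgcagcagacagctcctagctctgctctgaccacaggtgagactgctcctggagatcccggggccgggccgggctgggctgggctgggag

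The motifs searched were TGANTCA (AP-1), TTCNNNGAA (STAT), the TATA box as TATAAA, the CCAAT box, the GC box GGGCGG, the TEAD motif GGAATG, the letters AGAACA that form part of the element bound by steroid hormone receptors, the E-box CACGTG and the GATA motif AGATAA, each on both strands. Positions are counted from the annotated start as 0. The Slc10a6 window held AGAACA at -164 to -159, GGAATG on the reverse strand at -130 to -125 and again at -100 to -95, and CCAAT at 42 to 46. Of all 32851 windows of this length, 19.0% held AGAACA, 14.7% held GGAATG and 37.4% held CCAAT. Both Paqr7 windows held AGATAA on the reverse strand, at 15 to 20 in the first and at -65 to -60 in the second, against 11.2% of all windows. The second also held GGGCGG on the reverse strand at -100 to -95, which 35.7% of windows hold. The windows shared no motif between Slc10a6 and Paqr7. The second Paqr7 window had a GC content of 67.0%, above the 48.0% of Slc10a6, the 52.3% of the first Paqr7 window and the median of 52.7%. No level per start site was measured, and the 2 Paqr7 windows overlap.

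Levels can be compared between the genes only per length, here as CPM per kilobase of annotated exon. In the controls the order was Paqr7 at 39.1 ± 8.86, Nccrp1 at 16.2 ± 1.45 and Slc10a6 at 1.43 ± 0.353 (SD, n = 3 each). In the knockouts it was Nccrp1 at 152 ± 15.3, Slc10a6 at 20.9 ± 3.13 and Paqr7 at 3.62 ± 0.399. The values of the 3 genes did not overlap within either group. Paqr7 thus went from the highest of the 3 to the lowest. The ratio of Paqr7 to Nccrp1 on this scale was 2.22, 2.88 and 2.08 in controls 1 to 3 and 0.0238, 0.0286 and 0.0199 in knockouts 1 to 3. Among all tested genes, Nccrp1 exceeded 77.9% to 80.8% of genes in the control libraries and 97.4% to 97.5% in the knockout libraries. Slc10a6 exceeded 22.8% to 28.4% in controls and 81.5% to 85.6% in knockouts. Paqr7 went the other way, from 89.3% to 93.2% in controls to 41.4% to 45.4% in knockouts.

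The ratio of Nccrp1 to Slc10a6 spread less among the knockouts than among the controls, where Slc10a6 rested on 53 to 99 counts. On the scale per kilobase Nccrp1 exceeded Slc10a6 by 13.9, 14.0 and 7.97-fold in controls 1 to 3 and by 7.52, 7.43 and 6.90-fold in knockouts 1 to 3. Control 3, which had the highest Slc10a6 and the lowest Nccrp1 of its group, lay near the knockouts in this ratio. On the CPM scale the Poisson intervals of Slc10a6 overlap among the controls, and both genes were chosen for tight differences. Nothing is therefore read from the spread of the ratio or from the place of control 3. For both genes, knockout 3 was the highest of the knockouts. For Paqr7, knockouts 1 and 3 were at 14.55 and 14.34 CPM, with overlapping Poisson intervals, so neither is read as the lowest. Knockout 3 was the male of its group. Among the females alone, control 1 against knockouts 1 and 2, the log2 difference of mean CPM was 3.04 for Nccrp1, 3.93 for Slc10a6 and -3.37 for Paqr7. Among the males alone, controls 2 and 3 against knockout 3, it was 3.44, 4.02 and -3.54. The difference between the sexes was not tested.

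The choice of the 3 genes as the most consistent responders used size and spread together, so the values below describe that choice and support nothing. The within-group SD of log2 CPM was 0.136 for Nccrp1, 0.258 for Paqr7 and 0.276 for Slc10a6. Of the 11328 tested genes with a mean of at least 5 CPM, whose median SD was 0.181, a smaller SD was found in 31.2% for Nccrp1, 72.0% for Paqr7 and 75.3% for Slc10a6. Only Nccrp1 was therefore tighter than the median gene. A log2 fold change of 3 or more was found in 85 genes (0.548% of those tested) and one of -3 or less in 137 (0.883%), and the median SD of these 222 genes was 0.710. An SD no larger than that of Slc10a6 was found in 6 of the 222. Beside the 3 genes these were Abcc8, Celsr3 and Etnk2, named after their values were seen, none of which exceeded 1.37 CPM on average in either group. Log2 CPM with a prior count of 2 narrows the spread of such low genes.

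**Figure D2:**
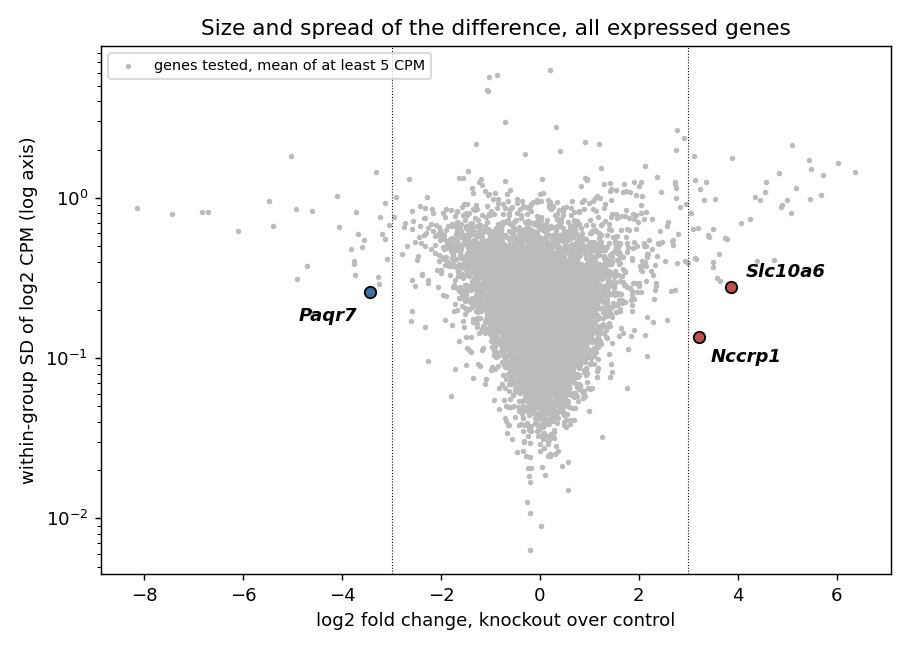
Log2 fold change of knockout over control against the within-group SD of log2 CPM (log axis) for the 11328 tested genes with a mean of at least 5 CPM, with dotted lines at 3 and -3. Nccrp1, Slc10a6 and Paqr7 lie outside the dotted lines at SDs of 0.136, 0.276 and 0.258, below the other plotted genes of that size.

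The coefficient of variation of Nccrp1 was 8.96% among control mice and 10.0% among knockouts, where counting alone would give 4.17% and 1.27%. For Slc10a6 it was 24.8% and 15% against 11.8% and 2.90%, and for Paqr7 22.7% and 11% against 1.62% and 4.92%. The biological coefficient of variation that edgeR fitted was 0.134 for Nccrp1, 0.177 for Slc10a6 and 0.171 for Paqr7, against a trend of 0.165, 0.184 and 0.163 for genes of their abundance.

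No numerical threshold came with the choice of the 3 genes, so genes that lie near them in size of difference relative to its error are given, as a description. They include Tgm1 (log2 fold change 2.16, SE 0.11), the cornified envelope transglutaminase, and Sprr4 (-2.26, SE 0.12), a small proline-rich protein gene, both with smaller folds. The predicted gene Gm5678 (-4.91, SE 0.26) had a larger fold, with 20.8 ± 3.52 CPM in control mice and 0.688 ± 0.198 CPM in the knockouts. The next genes with an absolute log2 fold change of at least 3 were Ddr2 and Serpina3n. Ddr2, a collagen receptor kinase, was at 4.13, 8.15 and 8.14 CPM in controls 1 to 3 and 204.3, 167 and 176 CPM in knockouts 1 to 3. Serpina3n, a secreted protease inhibitor, was at 3.32, 2.72 and 1.73 CPM and at 57.0, 41.1 and 64.1 CPM. Both had larger folds than the 3 genes and larger within-group SDs of 0.408 and 0.403.

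The genes most like each of the 3 were sought among 10691 named genes with a mean of at least 5 CPM, by the root mean square distance between log2 CPM profiles over the 6 libraries, each centred on its own mean. Both groups and their difference enter this measure, so likeness is a description. Closest to Nccrp1 was Spock2, a matrix proteoglycan gene, at a distance of 0.330 log2 units. Its knockouts lay above all controls as well, but the highest was knockout 2, with 129, 202 and 124 CPM in knockouts 1 to 3 against 14.9, 12.3 and 11 CPM in controls 1 to 3. Next came Il1f8 (0.349), the interleukin 36 beta gene, then Rusc2 (0.354), Galnt15 (0.356), an enzyme of mucin-type glycosylation, and the phosphodiesterase gene Pde1b (0.373). Of these 5, Rusc2 had the highest Pearson correlation with Nccrp1, 0.998 over the 6 libraries.

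Slc10a6 was closest to Thbd, thrombomodulin, at 0.296 log2 units. Thbd was at 7.54, 9.72 and 16.7 CPM in controls 1 to 3 and 167, 121 and 129 CPM in knockouts 1 to 3. Both genes had their highest control level in control 3, though the Poisson intervals of Slc10a6 overlap among the controls. Thbd was highest in knockout 1 among the knockouts, and Slc10a6 in knockout 3. Gpr35, a G protein-coupled receptor gene (0.365), Prune2 (0.395), Galnt15 (0.413) and Nccrp1 itself (0.415) followed. Galnt15 was thus among the 5 nearest of both genes that were higher.

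Paqr7 had the nearest match of the 3, Nkd2, an inhibitor of Wnt signalling, at 0.246 log2 units. Nkd2 was at 23.5, 27.1 and 15.8 CPM in controls 1 to 3 and 1.44, 1.5 and 2.00 CPM in knockouts 1 to 3, with the same order of controls as Paqr7. The order of the knockouts differed, with Nkd2 highest in knockout 3 and Paqr7 highest in knockout 2. Igfbp5, a binding protein of insulin-like growth factors (0.305), was also highest in control 2 and lowest in control 3. Among the knockouts it was lowest in knockout 2, where Paqr7 was highest. Alox12e, an epidermal lipoxygenase (0.325), the organic anion transporter Slco2b1 (0.383) and S100a3, an S100 gene of the hair cuticle (0.385), completed the 5. Ranking by Pearson correlation in place of the distance kept 1 of the 5 genes for Nccrp1, 0 for Slc10a6 and 0 for Paqr7.

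No tested relative of Nccrp1 was called. In the FBA domain family Nccrp1 stood beside Fbxo6 in the controls, at 16.2 ± 1.45 and 17.4 ± 3.18 CPM per kilobase, a difference within their spread. In the knockouts Fbxo6 was at 16.4 ± 1.16 and Nccrp1 at 152 ± 15.3. Nccrp1 made up 42.2%, 48.1% and 42.1% of the family's summed level in controls 1 to 3 and 88.0%, 87.7% and 89.0% in knockouts 1 to 3. Of its 5 relatives 4 were tested and 0 were called in either direction by edgeR's quasi-likelihood test at an adjusted p under 0.05, against 17.4% of all genes called higher and 18.8% called lower. At an unadjusted p under 0.05 edgeR gave 1 higher and 0 lower, and DESeq2 and limma-voom gave 0 adjusted calls. Fbxo6, which recognises sugar chains of misfolded glycoproteins, had a log2 fold change of -0.09 (SE 0.15), Fbxo44 of 0.05 (SE 0.19) and Fbxo17 of -0.25 (SE 0.33). Fbxo2, another sugar-binding member and the 1 unadjusted call, was at 0.96 (SE 0.38, edgeR's adjusted p = 0.0811). Fbxo27 had at most 12 counts in a library and was not tested. The median over the 4 tested relatives was -0.02, as over all genes tested.

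Slc10a6 went from the third to the highest level of the SLC10 family. Its share of the family's summed level per kilobase was 12.6%, 13.4% and 21.6% in controls 1 to 3 and 65.8%, 68.5% and 76.4% in knockouts 1 to 3. The other 2 members that passed the filter on low counts were Slc10a3 and Slc10a7, whose substrates are not settled. Slc10a3 was at 10.9 ± 2.35 CPM in control mice and 13.0 ± 1.89 CPM in the knockouts (log2 fold change 0.25, SE 0.20). Slc10a7 was at 21.3 ± 1.5 and 22.1 ± 2.21 CPM (0.06, SE 0.13). Neither was called by edgeR, also at an unadjusted p under 0.05 (0 calls), by DESeq2 or by limma-voom. The bile acid carrier of liver, Slc10a1, had 0 counts in every library, which allows up to 0.02 CPM over the 149746276 counts of all libraries. Slc10a2, the bile acid carrier of gut, averaged 0 CPM in control mice and 0.0121 CPM in the knockouts. Slc10a4 and Slc10a5 were at or below 0.0577 CPM on average in both groups.

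In the PAQR family Paqr7 was lower in the knockouts while 3 relatives rose. Paqr7 held 24.6%, 32.2% and 24.7% of the family's summed level per kilobase in controls 1 to 3 and 2.29%, 2.43% and 2.67% in knockouts 1 to 3. In the controls it was at 39.1 ± 8.86, beside Adipor1, an adiponectin receptor, at 46.0 ± 8.93, which is within their spread. In the knockouts 6 or 7 of the other 10 genes lay above it. Of the 10 relatives 8 were tested, 3 rose, 0 fell and 5 were not called, against 17.4% of all tested genes called higher and 18.8% called lower, with a median log2 fold change of 0.23 against -0.02 over all genes. At an unadjusted p under 0.05 edgeR gave 4 higher and 0 lower, DESeq2 gave 4 and 0 adjusted calls, and limma-voom 2 and 0.

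Among the membrane progestin receptors, Paqr8 (receptor beta) rose from 5.62 ± 1.74 to 20.8 ± 11.5 CPM (a log2 fold change of 1.89, SE 0.48, edgeR's adjusted p = 0.0207). It was at 7.41, 5.53 and 3.93 CPM in controls 1 to 3 and 24.8, 29.7 and 7.88 CPM in knockouts 1 to 3, so knockout 3 lay just above the highest control. Paqr6 (receptor delta) rose from 6.07 ± 1.28 to 10.3 ± 1.81 CPM (0.77, SE 0.22, edgeR's adjusted p = 0.0298). Paqr5 (receptor gamma) was at 43.1 ± 4.90 and 42.9 ± 8.10 CPM and was not called, and Paqr9 (receptor epsilon) averaged 0.0537 and 0.0781 CPM. Per kilobase Paqr7 was the highest of these 5 receptors in the controls, at 39.1 against 10.9 for Paqr5, and in the knockouts Paqr5 was the highest at 10.9 ± 2.05. The adiponectin receptor gene Adipor2 rose from 93.3 ± 6.71 to 205 ± 30.3 CPM (1.14, SE 0.14, edgeR's adjusted p = 0.00200), while Adipor1 (0.47, SE 0.18) and Mmd (-0.03, SE 0.14) were not called. Paqr6 was no longer called when control 1, control 3 or either of knockouts 1 and 2 was left out (edgeR's adjusted p from 0.0512 to 0.1). The same held for Paqr8 with control 2, control 3 or either of those knockouts left out (from 0.0576 to 0.0729). With the inferred sex in the model Paqr6 was not called either (edgeR's adjusted p = 0.0544). Paqr8, lowest in the male among the knockouts, had a log2 fold change of 1.32 in that model (SE 0.3, edgeR's adjusted p = 0.0162). Without control 3, knockout 1 or knockout 2 the number of relatives that rose, over all 3 families, was 1 in place of 3.

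**Figure D3:**
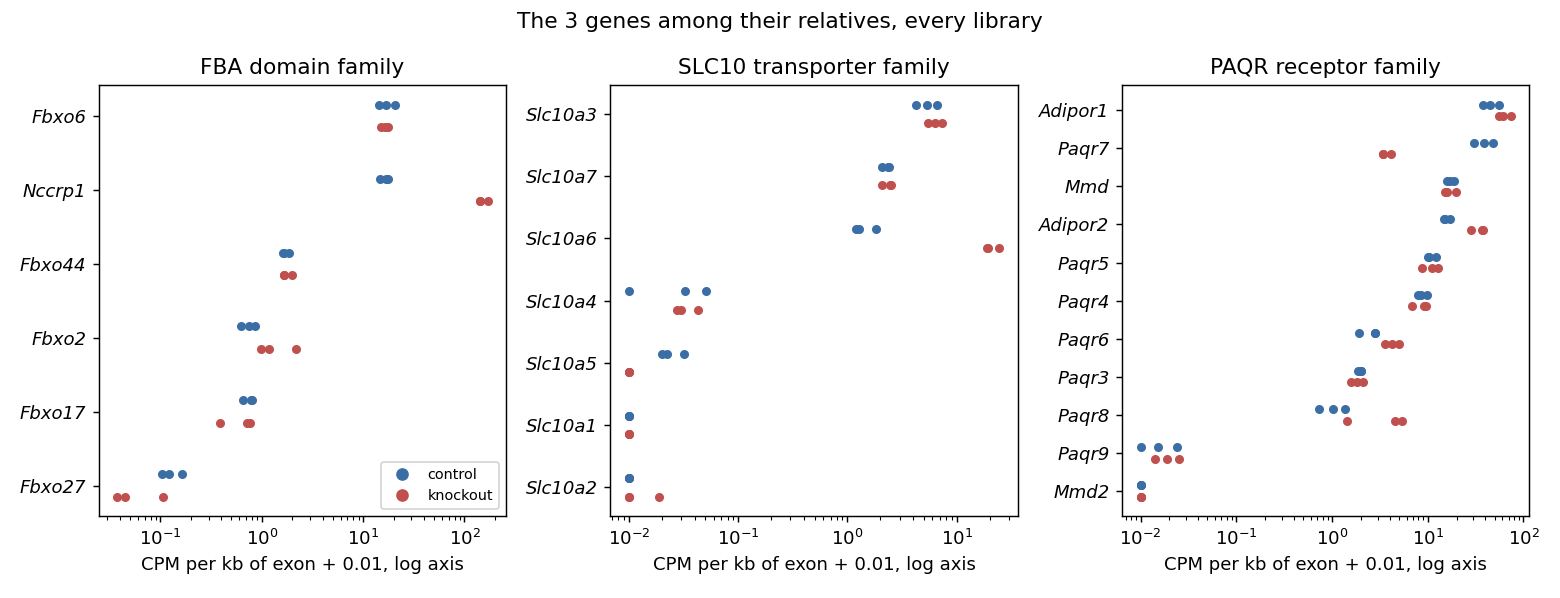
Level per kilobase of exon plus 0.01 (log axis) of each gene of the FBA domain, SLC10 and PAQR families in the 3 control (blue) and 3 knockout (red) libraries, ordered by the control mean. Nccrp1 and Slc10a6 stand far to the right of their own controls and Paqr7 far to the left, while Fbxo6, Slc10a7, Paqr5 and Mmd overlap between the groups.

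Slc10a6 carries sulfated steroids, so genes that make, move or release them were examined. The list also holds organic anion carriers, Slco2a1 among them, whose carriage of sulfated steroids was not examined here. Of 21 listed genes for the handling of steroid sulfates 15 were tested, of which 8 rose, 1 fell and 6 were not called, against 17.4% of all tested genes called higher and 18.8% called lower, with a median log2 fold change of 0.69 against -0.02 over all genes. The one that fell was Slco2b1, another uptake carrier of sulfated steroids, from 50.1 ± 8.57 to 5.87 ± 1.92 CPM (-3.09, SE 0.26, edgeR's adjusted p = 0.000795). It was at 40.3, 55.9 and 54.1 CPM in controls 1 to 3 and 3.68, 7.26 and 6.68 CPM in knockouts 1 to 3, with no overlap. In the same mice in which Slc10a6 was higher, Slco2b1 was thus lower. The organic anion carriers Slco3a1, Slco4a1 and Slco2a1 rose by 0.76 (SE 0.15), 0.77 (SE 0.23) and 0.95 (SE 0.30).

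Of the genes that attach sulfate, Sult2b1, the sulfotransferase of cholesterol and steroids in epidermis, rose from 47.0 ± 4.34 to 84.7 ± 17.3 CPM (a log2 fold change of 0.85, SE 0.17, edgeR's adjusted p = 0.00812), and Papss2, which makes the sulfate donor, by 0.66 (SE 0.21). Its counterpart Papss1, more abundant at 113 ± 9.12 and 149 ± 34.0 CPM, was not called. The exporters Abcg2, Abcc3 and Abcc1 rose by 0.88 (SE 0.18), 1.31 (SE 0.33) and 0.46 (SE 0.14), and Abcc4 was at -0.06 (SE 0.21). The estrogen sulfotransferase Sult1e1 had 0 counts in every library. Sumf1, which activates sulfatases, was at 28.5 ± 2.63 and 26.0 ± 4.86 CPM and was not called. Steroid sulfatase was not analysed here. Papss2 and Abcc1 were no longer called when control 1, control 3 or either of knockouts 1 and 2 was left out, nor Abcc1 when control 2 was (edgeR's adjusted p from 0.0628 to 0.126). Slco2a1 and Slco4a1 lost their calls with control 2, control 3 or either of those knockouts left out (from 0.0608 to 0.118), and Abcc3 with control 2 or control 3 left out (0.0565 and 0.0604). With the inferred sex in the model Papss2 and Abcc1 were not called (edgeR's adjusted p = 0.0934 and 0.0848).

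Steroid converting enzymes were called in both directions, at shares close to those of all genes. Of 25 listed genes 16 were tested, of which 3 rose, 3 fell and 10 were not called, against 17.4% of all tested genes called higher and 18.8% called lower, with a median log2 fold change of -0.06. Hsd17b14 rose from 1.26 ± 0.210 to 6.89 ± 3.87 CPM (2.45, SE 0.48), Cyp17a1, the enzyme that turns progestins into androgen precursors, from 8.43 ± 3.31 to 25.2 ± 6.87 CPM (1.58, SE 0.32), and Hsd17b7 by 1.05 (SE 0.21). Hsd17b13 fell from 9.49 ± 3.22 to 1.4 ± 0.723 CPM (-2.76, SE 0.43), and Hsd11b1, which activates glucocorticoids, from 3.78 ± 1.17 to 0.654 ± 0.318 CPM (-2.52, SE 0.42). Hsd17b10 fell by 1.11 (SE 0.13). Hsd17b12, Hsd17b4 and Hsd3b7, the most abundant of those not called, were at -0.35 (SE 0.14), -0.15 (SE 0.15) and -0.30 (SE 0.22). Cyp17a1 was at 4.91, 8.91 and 11.5 CPM in controls 1 to 3 and 32.1, 18.4 and 25.1 CPM in knockouts 1 to 3. Hsd17b14 was at 7.485, 10.44 and 2.759 CPM in knockouts 1 to 3, lowest in the male. With the inferred sex in the model its log2 fold change was 1.95 (SE 0.39, edgeR's adjusted p = 0.0117).

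Paqr7 is one of several receptors for progestins and other steroids. The nuclear progesterone receptor gene Pgr, named here after its values were seen, had 2, 5 and 4 counts in controls 1 to 3 and 0, 1 and 2 in knockouts 1 to 3 and was not tested. Of 15 genes of progestin signalling and steroid receptors 13 were tested, of which 1 rose, 3 fell and 9 were not called, with a median log2 fold change of -0.09. Over all tested genes 17.4% rose and 18.8% fell, so the share that fell is near the background. Nenf, a heme-binding relative of the progesterone receptor membrane components, fell by 0.81 (SE 0.16), and Pgrmc1, one of those components, by 0.47 (SE 0.14). Gnai3, an inhibitory G protein subunit of the kind membrane progestin receptors use, rose by 0.45 (SE 0.13). Serbp1 (0.27, SE 0.18), Gnai2 (0.06, SE 0.10) and the glucocorticoid receptor gene Nr3c1 (-0.09, SE 0.17) were not called. Pgrmc1 was no longer called with control 1, control 3 or either of knockouts 1 and 2 left out (edgeR's adjusted p from 0.0705 to 0.114), nor Gnai3 with any control or either of those knockouts left out (from 0.0618 to 0.0900). Nor was Gnai3 called with the inferred sex in the model (0.0518). Over the 3 steroid lists the number that rose was 12, and 7 without control 2, 6 without control 3, 7 without knockout 1 and 7 without knockout 2. With upper-quartile factors it was 7.

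**Figure D4:**
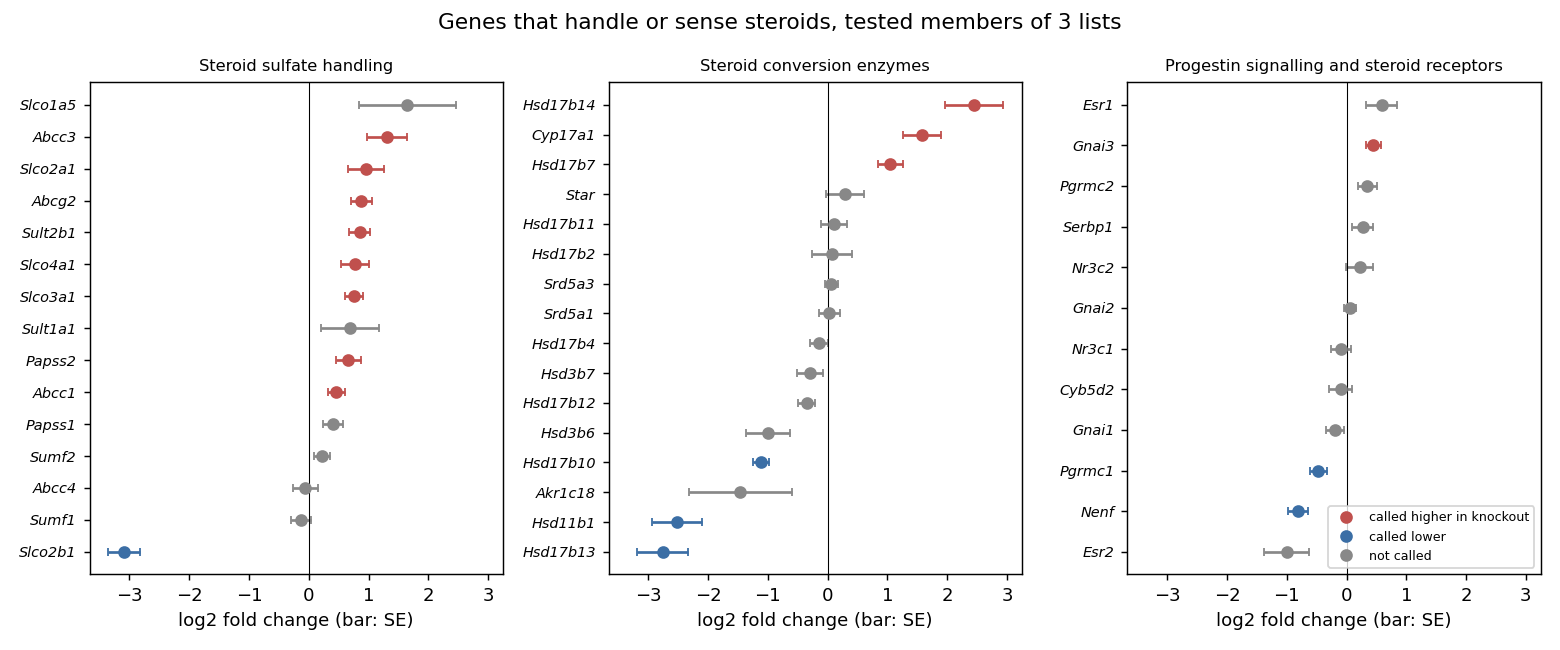
Log2 fold change of knockout over control with its standard error for the tested genes shown of the 3 steroid lists, in red where called higher, in blue where called lower and in grey where not called by edgeR. Of the genes shown 8, 3 and 1 are red and 1, 3 and 2 are blue, with Slco2b1 lowest in the first list at -3.09.

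The genome neighbourhood of each gene was read from the 5 protein-coding genes on each side by gene start. Of the 30 neighbours 22 were tested, of which 5 rose and 6 fell, against 17.4% of all tested genes called higher and 18.8% called lower. Around Nccrp1 2 of 6 tested neighbours rose, 1 fell and 3 were not called. The next gene on its higher-coordinate side, Pak4, a kinase of the cytoskeleton, rose from 99.9 ± 8.85 to 179 ± 12.6 CPM (a log2 fold change of 0.84, SE 0.12, edgeR's adjusted p = 0.00287). Beyond it the phosphatase gene Acp7 rose by 1.4 (SE 0.25), and on the other side Gmfg, a gene of blood cells, fell by 2.15 (SE 0.45). The FBA domain genes Fbxo27 and Fbxo17 are also among these neighbours. Their starts lie 145.6 and 169.6 kb from that of Nccrp1.

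Around Slc10a6 2 of 8 tested neighbours rose, 2 fell and 4 were not called, where 17.4% of all tested genes rose and 18.8% fell. Its nearest tested neighbours on either side, Ptpn13 (0.38, SE 0.16) and Aff1 (0.30, SE 0.18), were not called. Cds1 and Wdfy3, whose starts lie at -1864.3 and -1559.5 kb from that of Slc10a6, rose by 0.43 (SE 0.13) and 0.83 (SE 0.19). Klhl8 fell by 0.55 (SE 0.14). Hsd17b13, from the list of steroid converting enzymes above, fell too (log2 fold change -2.76, SE 0.43). Its start lies 348 kb from that of Slc10a6. Around Paqr7 1 of 8 rose, 3 fell and 4 were not called, against the same shares of all tested genes. Both adjacent genes fell. Stmn1, stathmin, a regulator of microtubules that is high in dividing cells, fell from 110.4 ± 13.2 to 39.0 ± 2.33 CPM (-1.5, SE 0.12, edgeR's adjusted p = 0.000644), and Aunip by 1.13 (SE 0.34) from 1.5 ± 0.406 CPM. Extl1 fell by 0.66 (SE 0.10). Cds1 was no longer called with any control or either of knockouts 1 and 2 left out (edgeR's adjusted p from 0.0613 to 0.109), nor Aunip with any library other than control 1 left out (from 0.0584 to 0.123). Wdfy3 was not called without knockout 1 (0.0522), nor Klhl8 without control 2 (0.0529). In the model with the inferred sex, Cds1 and Aunip were not called (edgeR's adjusted p = 0.0788 and 0.0672). The number of neighbours that rose was 5, and 3 without knockout 1.

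**Figure D5:**
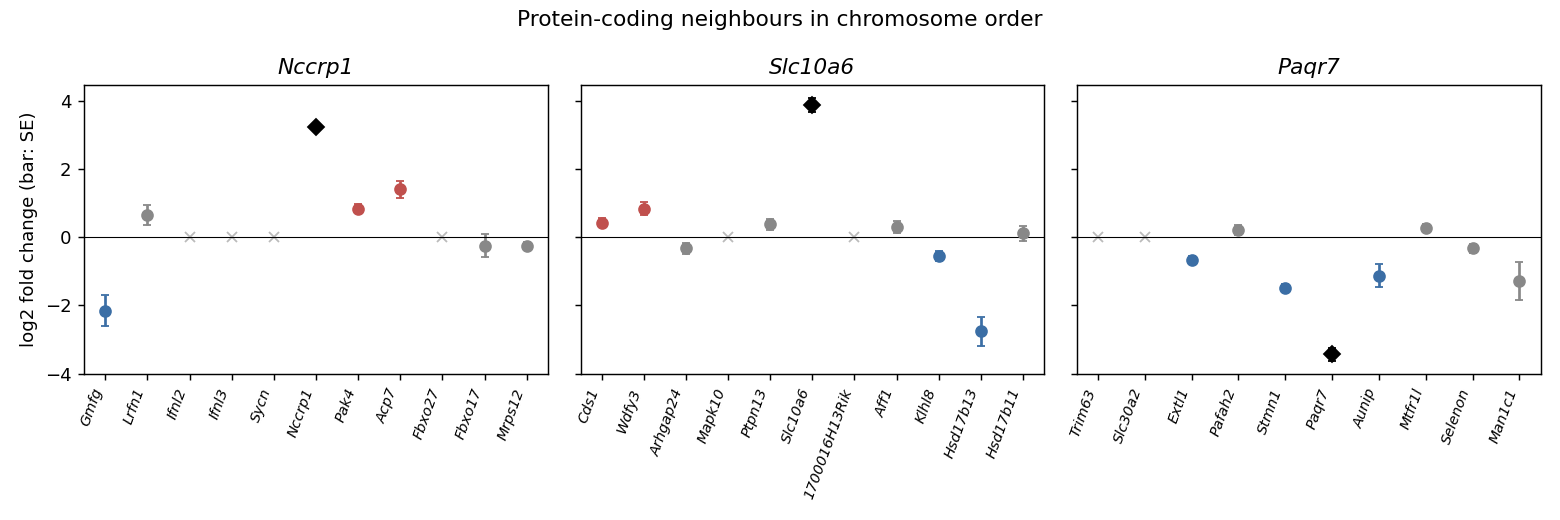
Log2 fold change with its standard error of Nccrp1, Slc10a6 and Paqr7 (black) and of the protein-coding genes shown on each side in order along the chromosome, in red where called higher, blue where called lower and grey where not called, with crosses for genes not tested. The 3 genes stand apart from all of their tested neighbours, the largest of which is Hsd17b13 at -2.76.

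Markers of other cells and states moved in the same libraries, and their counts stand against 17.4% of all tested genes called higher and 18.8% called lower. Of 17 tested suprabasal keratinocyte markers 12 rose and 0 fell, with a summed level of 16000 to 18400 CPM in control mice and 33300 to 50300 CPM in the knockouts. Of 18 wound and stress keratinocyte genes 14 rose and 0 fell, with sums of 2240 to 4100 and 5460 to 19900 CPM.

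Beside the lower Paqr7, 13 of 14 tested hair shaft and sheath markers fell, where 18.8% of all tested genes did, with sums of 115 to 384 CPM in control mice and 37.9 to 40.4 CPM in the knockouts. Their median log2 fold change was -6.48. Most of each knockout sum was Tchh (48.9 and 17.7 CPM) and the uncalled Hoxc13 (16.1 and 15.6 CPM). Of 12 sebaceous gland markers 8 fell (sums of 1540 to 1920 and 747 to 1270 CPM), of 11 T cell markers 10 fell (232 to 451 and 134 to 177 CPM) and of 7 melanocyte markers 6 fell (86.2 to 223 and 55.1 to 60.2 CPM). The median log2 fold change of the 7 melanocyte markers was -2.34. Most of their sum in each knockout was Mitf, which averaged 34.7 and 39.8 CPM and was not called. Of 8 fibroblast markers 2 fell and 6 were not called (1200 to 1670 and 608 to 1170 CPM). Most of each sum was Postn, which averaged 1390 ± 210 and 776 ± 285 CPM and was not called. The 2 that fell were Dcn (7.34 and 2.42 CPM) and Lum (1.16 and 0.306 CPM). Of 12 Langerhans cell and macrophage markers 3 rose and 1 fell (744 to 1590 and 776 to 1000 CPM). Of 4 tested endothelial and mural markers 1 rose and 1 fell, with a median log2 fold change of -0.67. Their sum was higher in the knockouts (3.36 to 5.07 and 14.5 to 23.4 CPM) through Acta2 alone, which averaged 1.62 and 18.2 CPM, while Rgs5 fell by 1.57 on the log2 scale and Pecam1 (-0.93) and Pdgfrb (-0.42) were not called. The 3 tested genes of the neutrophil list rose (7.67 to 35.9 and 154 to 1510 CPM), while its defining markers Ly6g, Elane and Retnlg had 0 counts in every library. Of these 3, S100a8 and S100a9 made up most of each sum and are also counted in the wound and stress list above. The other was Cxcr2 (0.888 and 21.5 CPM). The part of these cell types in the differences of Nccrp1, Slc10a6 and Paqr7 was not tested.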

How the data were processed

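RNA-seq of keratinocytes from 3 control and 3 Lama3 knockout mice was analysed from 1 table of whole-number counts per gene that the authors deposited. The tools listed, per the submitters' processing notes, include featureCounts 1.4.6, TopHat 1.3.3 and Cuffdiff 1.3.0, with the build GRCm38. The annotation release, strand setting and treatment of multi-mapping reads are not given in the sources used here.

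Symbols, positions and exon lengths came from GENCODE M21 (GRCm38), which named 98.0% of the 45513 identifiers. edgeR 4.0.16 (R 4.3.3) was run with TMM factors, filterByExpr, robust quasi-likelihood fits and the group as the design, and p-values were adjusted by Benjamini-Hochberg over the 15513 genes tested. Genes said to have risen or fallen, or called, passed an adjusted p under 0.05. SE is the log2 fold change divided by the square root of the F statistic. Total counts of 20126395 to 28473479 per library set the precision of low values. The labels number each library separately, and the libraries were taken as separate mice.

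The 3 genes and the 17 gene lists were chosen with earlier results of these data known. Named genes were the 3 genes, Lama3, the 5 most like each, the genes next in rank, the called genes of the family and steroid lists with up to 3 abundant uncalled ones, and the called neighbours. Alternatives used DESeq2 1.42.0, limma 3.58.1 (voom), other scalings and filters, no robust estimation, a replicate block, a covariate for inferred sex, leaving out each library, another exon length and other measures of likeness. The values of some listed genes are not reported here, in the text or the figures, though counts over the lists include them.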

Additional observations from a re-analysis of the deposited data

How the results depend on the processing

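Over 15 alternatives the log2 fold change stayed between 3.08 and 3.28 for Nccrp1, 3.72 and 4.10 for Slc10a6, and -3.58 and -3.24 for Paqr7. The value 3.08 of Nccrp1, from upper-quartile factors, was the one alternative log2 fold change of the 3 genes that moved by more than the within-group SD. Those factors shift the median log2 fold change of all genes from -0.02 to -0.17. With them 1756 genes rose and 3988 fell, a share of 30.6% higher against 48.0%, and 7 genes of the steroid lists rose. With each library left out in turn, all genes called higher numbered 1586 to 2754 and lower 1714 to 2771, relatives that rose 1 to 3, steroid genes that rose 6 to 13, neighbours that rose 3 to 6, and the log2 fold change of Lama3 was -0.62 to -0.42. Of 32 called relatives, steroid genes and neighbours, 19 kept their call in all 15 alternatives and 13 lost it in at least 1. The replicate numbers were not taken as pairs in the main fit. Correlations of same-numbered deviations from the group means were -0.114, -0.098 and 0.419. Those between different numbers ran from -0.388 to 0.41. With 3 mice in each group these values cannot settle whether the mice were paired. With the replicate block 2422 genes rose and 2701 fell, and the 3 fold changes were 3.22, 3.89 and -3.41. Their SEs were 0.15, 0.14 and 0.13, against 0.13, 0.21 and 0.19 in the main fit. With the longest transcript as length, Paqr7 was at 4.34 CPM per kilobase in the knockouts. With all annotated exons it was at 3.62, so this level also moved by more than its SD of 0.399. With a prior count of 0.5, 5, 5 and 4 of the 5 most like genes were shared for Nccrp1, Slc10a6 and Paqr7. Depth limits the control level of Slc10a6 most, at 53 to 99 counts. The causes of these shifts were not tested.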
